A study of Mus musculus with 3 samples.

Results

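A set of 9 genes for adhesion and trafficking receptors of T cells was followed in naive CD4 T cells and in Th2, Th9 and iTreg cultures. They were Itga4, Itgae, Itgal, Itgb1, Itgb2 and Itgb7 for integrin chains, Cd44 for the hyaluronan receptor, and S1pr1 and S1pr4 for receptors of sphingosine 1-phosphate (S1P). The genes were chosen by name, and every probe whose RefSeq accession matched them was taken. Of these 9 genes 8 had a matched probe, 14 probes in all among 39429 on the array. No probe matched Itgae, the alpha E chain, by accession, and it was not analysed here. Whether an unmatched probe of the array reads Itgae is not known. No selectin gene was among the 9.

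Integrins are pairs of an alpha and a beta chain that bind ligands on vessel walls, on other cells and in matrix. The alpha 4 chain pairs with beta 7 to bind MAdCAM-1 of gut vessels, and with beta 1 to bind VCAM-1, while alpha L pairs with beta 2 to form LFA-1, the receptor of ICAM-1. CD44 binds hyaluronan and is used as a surface mark of activated and memory T cells. S1PR1 senses the S1P of blood and lymph and lets T cells leave lymphoid organs. The transcription factor KLF2 drives S1pr1 transcription, and the activation antigen CD69 binds S1PR1 and takes it off the surface.

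Naive CD4 T cells were purified on magnetic columns from the spleens of C57BL/6 mice aged 6 to 8 weeks. All cultures were activated for 3 days through CD3e (plate-bound antibody) and CD28 (soluble antibody), each antibody at 10 µg/ml. In the Th2 culture mouse IL-4 stood at 5 ng/ml and mouse IL-2 at 1 ng/ml, and interferon gamma was blocked with 2 µg/ml of antibody. In the Th9 culture IL-4 stood at 1 ng/ml, human TGF-beta 1 at 2 ng/ml and IL-2 at 0.2 ng/ml, with 5 µg/ml of the antibody to interferon gamma. The iTreg culture, labelled Treg in one field, had TGF-beta 1 at 5 ng/ml and IL-2 at 0.4 ng/ml, and both interferon gamma and IL-4 were blocked with 5 µg/ml of antibody each. RNA of each culture (Cy5) was hybridised with naive RNA (Cy3) on 1 Agilent array, so 3 arrays gave 1 channel per culture and 3 naive channels. The dyes were not swapped, and no culture was activated without polarising cytokines. A ratio to naive cells therefore holds activation, medium and dye together, and these cannot be told apart.

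With 1 array per culture no difference between cells was tested and no p-value is given. A log2 ratio is the normalised log2 intensity of the culture minus that of naive cells on the same array, and the value after ± is the scanner software's error for that spot (n = 1 array). A probe was measured when its spot was well above background in both channels. A difference of at least 2-fold (1 log2 unit) is the size rule used for counts. Of the 14 probes 11 were measured on all 3 arrays, and these covered all 8 genes. Their scanner error ran from 0.204 to 0.416 log2 units. Of the spots for genes, 53% to 54.1% cleared background in the naive channels and 48.9% to 51% in the cultures, and none was saturated. The median SD of a gene over the 3 naive channels was 0.0478 log2 units (11516 genes). For the 11 measured member probes that SD lay between 0.01 and 0.07, so their naive level was nearly the same on each array.

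Against naive cells, the genes for the alpha 4 and beta 7 integrin chains and for S1PR1 were lower in all 3 cultures, and Cd44 was higher by its brightest probe. The genes for alpha L, beta 2 and beta 1 lay within 2-fold of naive cells in every culture. Counted by the brightest probe of each gene, 3 of 8 genes were at least 2-fold lower in Th2, 4 in Th9 and 3 in iTreg. Only Cd44, 1 of 8, was at least 2-fold higher, in each culture. Among all measured genes 14.5% were at least 2-fold lower in Th2, 15.6% in Th9 and 8.15% in iTreg. Those higher were 14.8%, 15.5% and 10.2%. In all 3 cultures together 3 of 8 members and 6.02% of 10347 genes were lower, and 1 of 8 members and 7.29% of genes were higher. The median log2 ratio of the 8 members was -0.79 in Th2, -0.83 in Th9 and -0.53 in iTreg, next to -0.02, -0.01 and -0.02 over all measured genes. With median centring the members' medians were -0.24, -0.70 and -0.82, so which culture lay furthest from naive cells turned on the scaling.

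**Figure D1:**
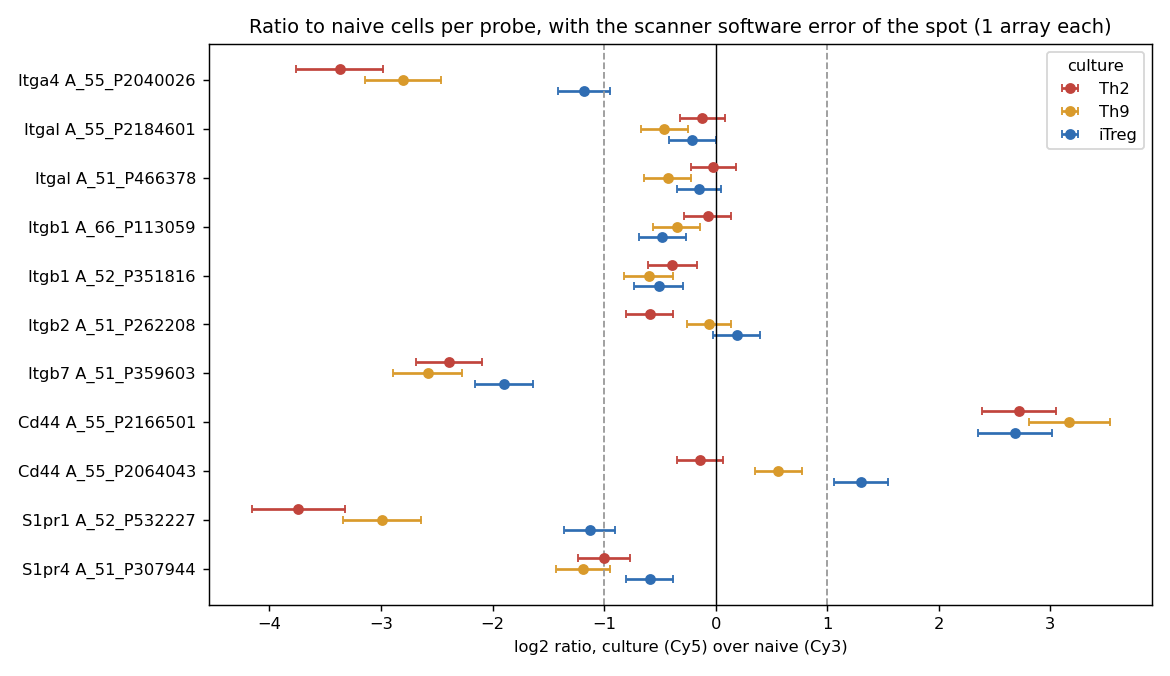
Log2 ratio of each culture over naive cells for the 11 measured member probes (points, 1 array each), with the scanner software's error of the spot as bars and dashed lines at 2-fold. The alpha 4, beta 7 and S1pr1 probes lie left of the 2-fold line in all 3 cultures, while the bright Cd44 probe lies between 2.68 and 3.17.

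How large the counts over all genes are depends on the scaling of the arrays. With median centring in place of loess, the curve fitted to ratio against intensity, the median of all genes moved to 0.33 in Th2, 0.16 in Th9 and -0.18 in iTreg. The share of at least 2-fold different genes that were higher then went from 50.5% to 77.4% in Th2, from 49.8% to 65.2% in Th9 and from 55.7% to 40.6% in iTreg. Lower genes then made up 7.4%, 11.4% and 12.0% of all measured genes in Th2, Th9 and iTreg, and higher genes 25.4%, 21.5% and 8.18%. The same 3, 4 and 3 members were at least 2-fold lower, and Cd44 alone higher, under that setting. The 10 T cell markers had median log2 ratios of -1.40 in Th2, -1.54 in Th9 and -0.52 in iTreg with loess, and 7, 8 and 1 of them were at least 2-fold lower. With median centring their medians were 0.21, -0.37 and -0.25, and 1, 1 and 0 were lower. With loess these T cell genes were thus closest to naive cells in iTreg, as Itga4 and S1pr1 were (below), and their part in those results was not tested.

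Itga4 encodes the alpha 4 chain and is annotated on chromosome 2. Its bright probe (A_55_P2040026) had median spot intensities of 4780.5, 4630 and 4683 in the 3 naive channels. The intensity was 580.5 in Th2, 869 in Th9 and 2593 in iTreg. The local background was 27 to 28 in the naive channel and 44 to 57 in the cultures. All 3 cultures were thus below every naive channel, with Th2 lowest and iTreg closest to naive. After normalisation the log2 level was 12.38 in the mean of the naive channels (SD 0.03, n = 3 channels), 9.01 in Th2, 9.56 in Th9 and 11.23 in iTreg. The log2 ratio was -3.37 ± 0.39 in Th2 (10.3-fold lower), -2.80 ± 0.34 in Th9 (6.95-fold) and -1.18 ± 0.23 in iTreg (2.26-fold). Only 46 of 10944 measured genes had a lower ratio in Th2. These are bulk RNA values, so fewer cells with the transcript and less transcript per cell cannot be told apart.

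The other Itga4 probe (A_66_P140103) was dim, with naive intensities of 152.5, 162 and 156.5 over a background of 26 to 28.5. It was not well above background in Th2 (87.5) or Th9 (95), and there it was at least 1.79-fold and at least 1.66-fold lower than in naive cells. A bound of this kind sets the naive level against the level of the dim spot. In iTreg the probe stood at a log2 ratio of -0.48 ± 0.27. Both probes were lower in every culture, but the dim one shows a smaller difference, and its iTreg value moved to -1.07 with the scanner software's processed signals. Averaged over both probes Itga4 stood at -0.83 in iTreg, inside 2-fold, which left 2 of 8 members at least 2-fold lower in iTreg and in all 3 cultures together.

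Itgb7 encodes the beta 7 chain, the partner of alpha 4 in gut homing and of alpha E in epithelium, and is annotated on chromosome 15. Its single probe gave naive intensities of 46336, 47590 and 47329. The cultures gave 21073 (Th2), 18234 (Th9) and 22377.5 (iTreg), each below all naive channels. The log2 level was 16.07 in naive cells (SD 0.03, n = 3 channels), 13.71 in Th2, 13.48 in Th9 and 14.14 in iTreg. The log2 ratios were -2.39 ± 0.30, -2.58 ± 0.31 and -1.90 ± 0.26, or 5.25-fold, 5.97-fold and 3.72-fold lower. In iTreg it had the lowest ratio of the 8 members, and 152 of 11119 genes were lower. With median centring the ratios were -1.10, -1.57 and -1.60, at least 2-fold lower in each but with Th2 now closest to naive. The order of the 3 cultures for Itgb7 is thus not settled.

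A promoter sequence was available for 5 members, and not for S1pr1, Itgal, Itgb2 or Itgae. The sequences before the transcription starts of Itga4 and S1pr4, members that were lower, are shown with that of Cd44, which was higher, for contrast. Each run is the 250 bases before the transcript start in the RefSeq table (GRCm38.p6), 5′ to 3′ on the gene's strand, plus for Itga4 and minus for the others. Capitals mark CACCC or its reverse complement GGGTG, the core bound by Krüppel-like factors.
Itga4 chr2:79255176-79255425: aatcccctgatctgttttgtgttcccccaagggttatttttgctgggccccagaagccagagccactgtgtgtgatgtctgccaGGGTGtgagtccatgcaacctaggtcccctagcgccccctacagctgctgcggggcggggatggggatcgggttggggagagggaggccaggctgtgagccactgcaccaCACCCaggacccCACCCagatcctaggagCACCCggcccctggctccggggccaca
S1pr4 chr10:81500138-81500387: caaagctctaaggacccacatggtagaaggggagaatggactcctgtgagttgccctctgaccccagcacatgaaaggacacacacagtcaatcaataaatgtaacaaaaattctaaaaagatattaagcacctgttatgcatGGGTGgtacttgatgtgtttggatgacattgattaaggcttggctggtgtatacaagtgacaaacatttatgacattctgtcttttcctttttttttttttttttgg
Cd44 chr2:102901666-102901915: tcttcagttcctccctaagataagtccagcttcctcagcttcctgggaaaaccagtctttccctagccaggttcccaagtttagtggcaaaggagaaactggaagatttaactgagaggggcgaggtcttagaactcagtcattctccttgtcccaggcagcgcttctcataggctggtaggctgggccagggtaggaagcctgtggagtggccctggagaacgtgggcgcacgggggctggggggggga
The Itga4 stretch held 4 such matches, the S1pr4 stretch 1 and the Cd44 stretch 0. Of 32851 promoters of this length 52.0% held at least 1. TGTGGT (or ACCACA), the core bound by RUNX factors, was found 1 time in Itga4 and in neither of the others, and 14.0% of promoters held it. TGANTCA, an AP-1 core, was in none of the 3, and in 6.75% of promoters. The Itgb1 stretch held 2 CACCC matches. The last 4 bases of the Cd44 stretch lie within the annotated gene. The Itgb7 stretch held 4 matches but lies within the annotated gene over all 250 bases, so it is not printed. A match is a string of letters, and no binding was measured.

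Itgb1 encodes the beta 1 chain, which pairs with alpha 4 and many other alpha chains. The brighter of its 2 probes (A_66_P113059) gave naive intensities of 968.5, 978.5 and 933, and 1134.5 in Th2, 932 in Th9 and 765 in iTreg. Raw intensities of the 2 dyes are not on 1 scale, and after normalisation every culture lay slightly below the naive channels. The log2 ratios were -0.07 ± 0.21 in Th2, -0.35 ± 0.21 in Th9 and -0.48 ± 0.21 in iTreg. The other probe (A_52_P351816) gave -0.39 ± 0.22, -0.60 ± 0.22 and -0.51 ± 0.22. Both probes put Itgb1 within 2-fold of naive cells. The Th2 value of the brighter probe turned to 0.26 with median centring, so its sign in Th2 is not settled. In the pair of alpha 4 and beta 1, then, the alpha gene was at least 2-fold lower in each culture by its bright probe, and the beta gene was not. In iTreg the dim Itga4 probe (-0.48) was inside 2-fold and close to the Itgb1 values.

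Itgal and Itgb2 encode the 2 chains of LFA-1. Itgal had 2 probes of like brightness, with naive intensities between 1430 and 1633.5. In the cultures the probes read 1964.5 and 1830 in Th2, 1466 and 1340 in Th9, and 1586 and 1624 in iTreg. Their log2 ratios were close to each other, at -0.12 ± 0.20 and -0.02 ± 0.20 in Th2, -0.46 ± 0.21 and -0.43 ± 0.21 in Th9, and -0.21 ± 0.21 and -0.15 ± 0.20 in iTreg. Only in Th9 did both exceed 2 times the scanner error, and both turned positive in Th2 with median centring (0.29 and 0.38).

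The Itgb2 probe gave naive intensities of 7275.5, 7599.5 and 7687, against 8086 in Th2, 12841.5 in Th9 and 12659 in iTreg. The log2 level was 13.22 in naive cells (SD 0.04, n = 3 channels), 12.59 in Th2, 13.19 in Th9 and 13.44 in iTreg. Th2 was the lowest and iTreg the highest of the cultures. The ratios were -0.59 ± 0.21, -0.06 ± 0.20 and 0.19 ± 0.21. With median centring they were 0.19, 0.57 and 0.20, so Itgb2 in Th2 was below or above naive cells by the scaling used. The 2 chains of LFA-1 therefore both stayed within 2-fold of naive cells under each setting run, in all 3 cultures.

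**Figure D2:**
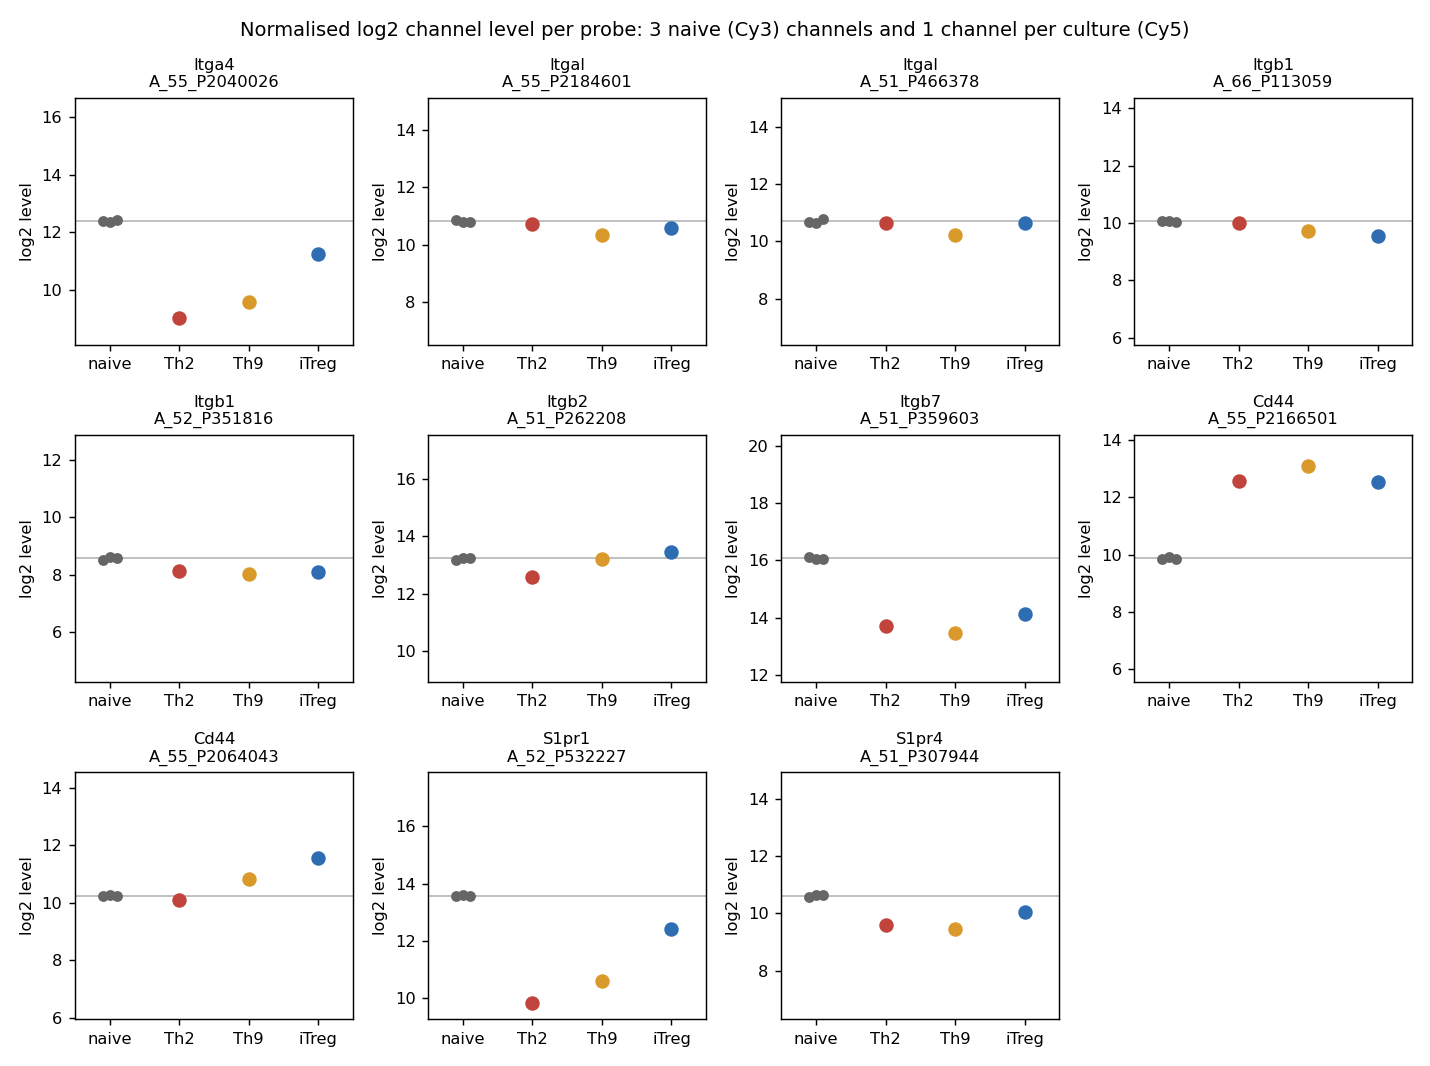
Normalised log2 level of the 11 measured member probes in the 3 naive channels (grey points, line at their mean) and in the Th2, Th9 and iTreg channels (1 point each); the vertical axis spans the same number of log2 units in each panel and starts at a different level. The naive points of each panel nearly coincide, and Itga4 and S1pr1 step up from Th2 to Th9 to iTreg below the naive line.

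Cd44 was far higher in the cultures by its brightest probe and much less so by another. At the brightest probe (A_55_P2166501) the naive intensities were 782, 822 and 789, and the cultures read 7129 in Th2, 10342 in Th9 and 6234 in iTreg. Each culture was well above all naive channels. The log2 level was 9.86 in naive cells (SD 0.04, n = 3 channels), 12.57 in Th2, 13.08 in Th9 and 12.51 in iTreg. The log2 ratios were 2.72 ± 0.33 (6.58-fold higher), 3.17 ± 0.36 (9.02-fold) and 2.68 ± 0.33 (6.40-fold). In iTreg 98.7% of measured genes had a lower ratio.

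The second Cd44 probe (A_55_P2064043) was as bright in naive cells, with intensities of 1097, 1095 and 1063.5, but read only 1246 in Th2, 2058 in Th9 and 3159.5 in iTreg. Its log2 ratios were -0.14 ± 0.21, 0.56 ± 0.21 and 1.30 ± 0.24. Here the Th2 culture sat at the naive level and iTreg was the highest of the 3. At this probe iTreg exceeded Th2 by 1.45 ± 0.32 log2 units, while at the brightest probe the difference was -0.04 ± 0.47. With median centring these differences were 0.85 and -0.74, so the second probe was then inside 2-fold. Both probes carry the same transcript accession, and the files hold no probe sequence, so the part of the transcript each one reads is not known here. CD44 transcripts are known to be spliced in many forms. The remaining 2 Cd44 probes were not well above background in naive cells (56 to 75) and, apart from 1 probe in Th9 (118), not in the cultures either. That probe (A_55_P2166488) was at least 1.43-fold higher in Th9.

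S1pr1, annotated on chromosome 3, had the lowest ratio of the 8 members in Th2 and in Th9. Its probe read 10397, 10487 and 9683 in the naive channels, and 1086 in Th2, 1953 in Th9 and 6108 in iTreg. All cultures were below the naive channels, and the iTreg value stood well apart from the other two. The log2 level was 13.59 in naive cells (SD 0.03, n = 3 channels), 9.84 in Th2, 10.62 in Th9 and 12.43 in iTreg. The log2 ratios were -3.74 ± 0.42 (13.4-fold lower), -2.99 ± 0.35 (7.93-fold) and -1.13 ± 0.23 (2.19-fold). In Th2 30 of 10944 genes were lower, and in iTreg 669 of 11119.

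S1pr4 encodes another S1P receptor of lymphocytes and lies on chromosome 10. Its probe read 1395, 1444 and 1411.5 in the naive channels, 862 in Th2, 773 in Th9 and 1070 in iTreg. It too was below the naive channels in each culture, but by less than S1pr1. The log2 ratios were -1.0 ± 0.23 in Th2, just short of the 2-fold line before rounding, -1.19 ± 0.24 in Th9 and -0.59 ± 0.21 in iTreg. With median centring they were -0.66, -1.09 and -0.87, with Th9 the lowest in both settings. With the scanner software's processed signals and the deposited values S1pr4 passed the 2-fold line in Th2 (-1.10 and -1.05).

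**Figure D3:**
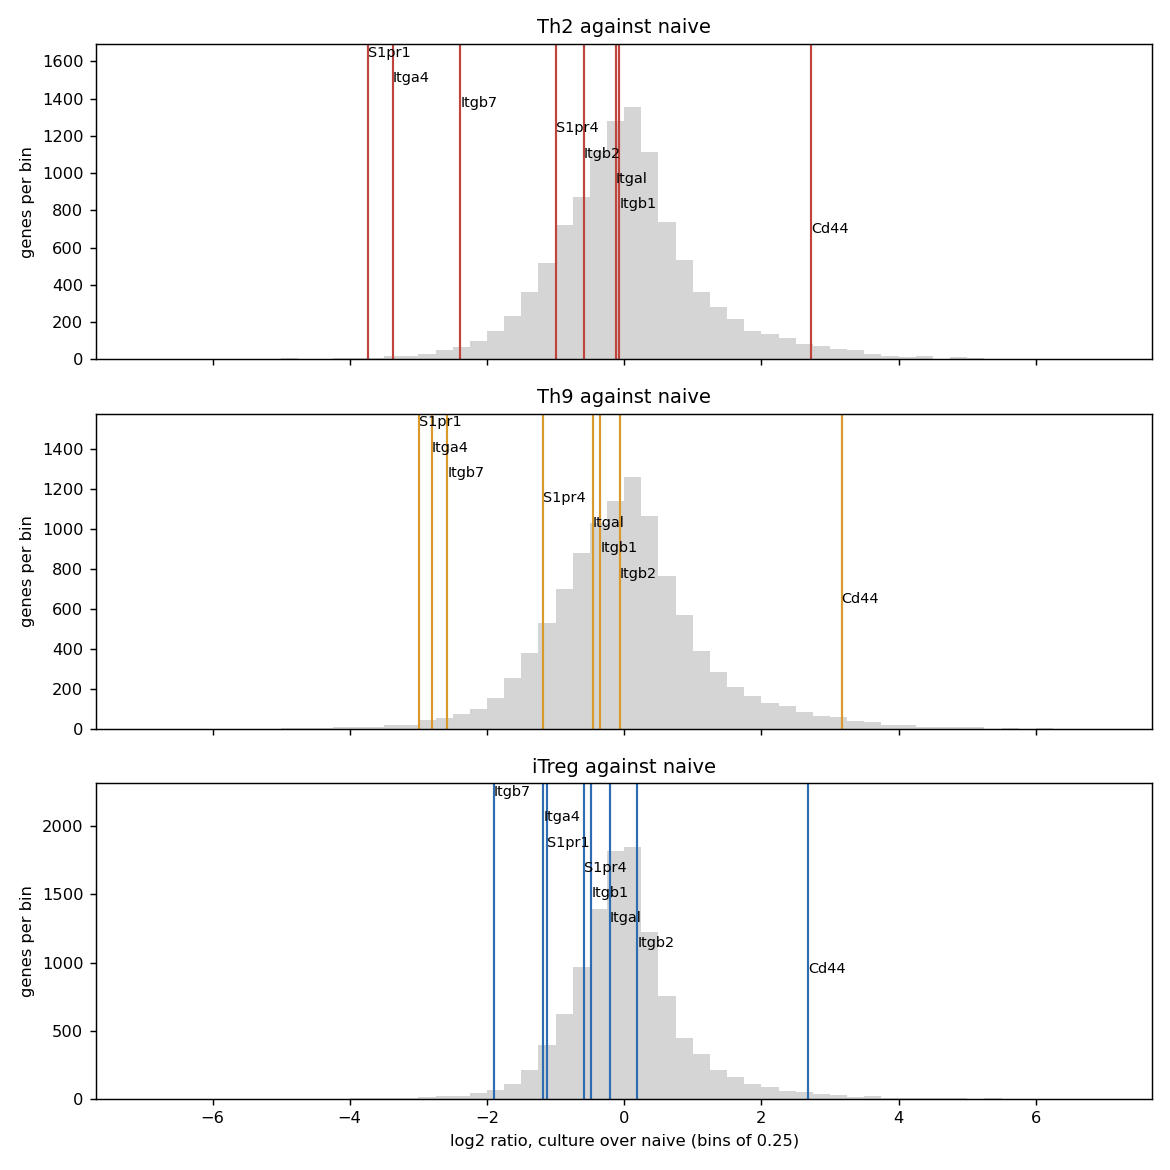
Histograms of the log2 ratio of all measured genes (grey, genes per bin of 0.25) in each culture, with the 8 member genes as coloured lines at their brightest probe. S1pr1 and Itga4 lie in the far lower tail in Th2 and Th9 and nearer the centre in iTreg, and Cd44 lies in the upper tail of each panel.

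Differences between cultures were formed by subtracting the log2 ratios, which removes a dye effect of a probe. The 3 differences share arrays, and the errors below combine those of the 2 spots. Between iTreg and Th2, Itga4 was higher in iTreg by 2.19 ± 0.45 log2 units (4.56-fold) and S1pr1 by 2.61 ± 0.47 (6.11-fold). These were 2 of 8 members at least 2-fold higher in iTreg and 0 of 8 lower, where 6.86% and 6.69% of 10537 genes were. The member median was 0.45 with loess and -0.35 with median centring. Among the other 6 genes the values ran from -0.41 (Itgb1) to 0.78 (Itgb2), and Itgb2 moved to 0.02 with median centring.

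Between iTreg and Th9, Itga4 was higher in iTreg by 1.62 ± 0.41 and S1pr1 by 1.85 ± 0.42. Again 2 of 8 members were at least 2-fold higher and 0 lower, beside 6.8% and 6.29% of 10479 genes. Over the settings run these values stayed between 1.24 and 1.80 for Itga4 and between 1.43 and 1.94 for S1pr1. Of the rest, Itgb7 (0.68 ± 0.41) and S1pr4 (0.60 ± 0.32) were nearest to the 2-fold line, and Itgb7 moved to -0.02 with median centring.

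With median centring 1 member was at least 2-fold lower in iTreg in each of these comparisons, Itgb1 against Th2 (-1.02) and Cd44 against Th9 (-1.0), while Itga4 and S1pr1 were still higher. The shares of all genes were then 2.27% higher and 26.8% lower against Th2, and 3.05% and 16.8% against Th9, since the median of all genes moved to -0.59 and -0.37.

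Between Th9 and Th2 no member was at least 2-fold different, as for most genes (1.28% higher and 1.38% lower of 10457, or 0.975% and 2.33% with median centring). S1pr1 was higher in Th9 by 0.76 ± 0.54, Itga4 by 0.57 ± 0.52 and Itgb2 by 0.53 ± 0.29, none beyond 2 times its error. For S1pr1 and Itga4 the levels thus run naive, iTreg, Th9, Th2 from high to low, with Th9 and Th2 not separated beyond 2 times the error. At the second Cd44 probe iTreg exceeded Th9 by 0.74 ± 0.32 and Th9 exceeded Th2 by 0.70 ± 0.29. In all 2 of 8 members, Itga4 and S1pr1, were below naive cells in each culture and at least 2-fold higher in iTreg than in both other cultures, a pattern held by 2.23% of 10347 genes.

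**Figure D4:**
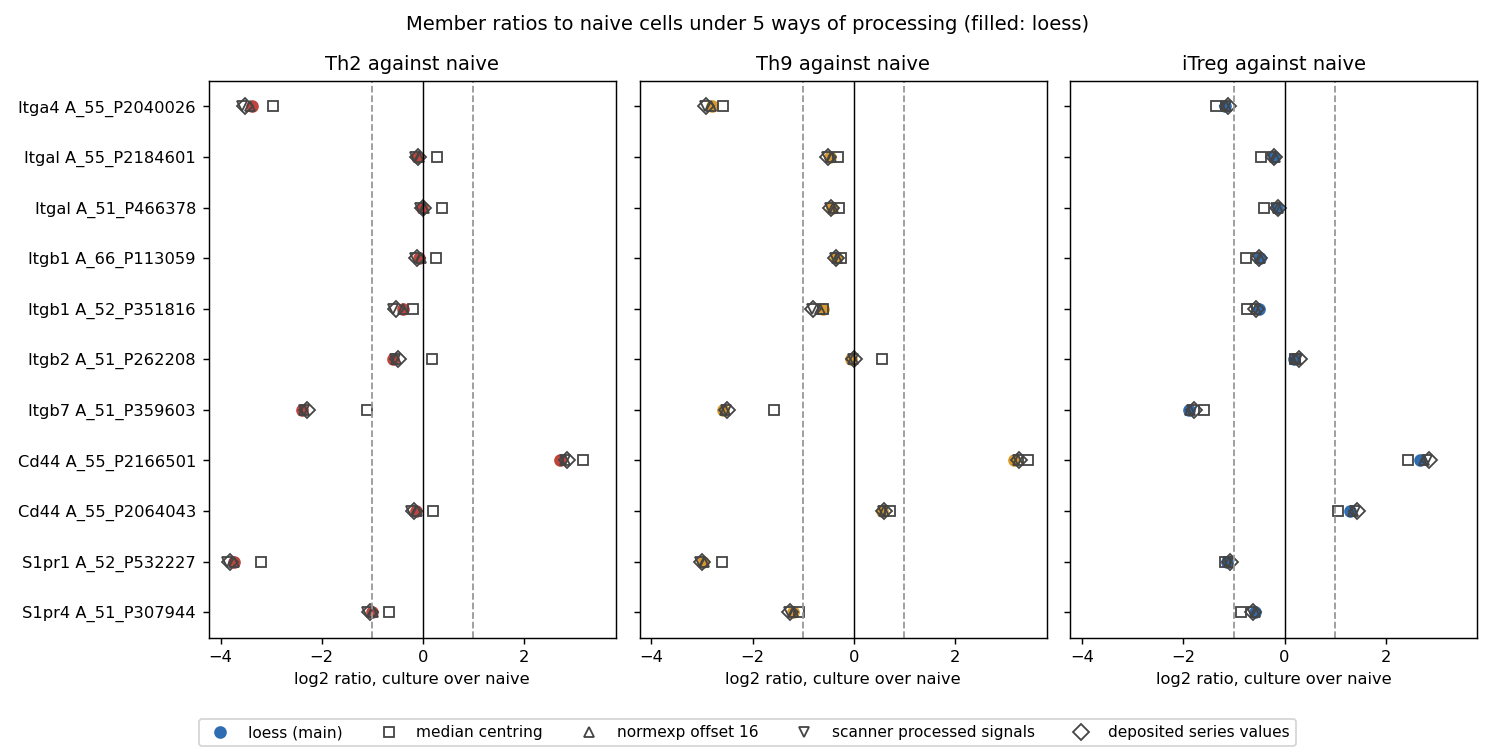
Log2 ratio of each culture over naive cells for the 11 measured member probes under 5 ways of processing (filled circles for loess, open symbols for the others), with dashed lines at 2-fold. Median centring (squares) shifts the bright Itgb7 and Itgb2 probes most in Th2 and Th9, and Itga4, S1pr1 and the bright Cd44 probe stay outside the 2-fold lines in every culture.

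The genes nearest to these patterns were sought by the distance over the 3 log2 ratios, among 10346 other genes measured on all arrays. The nearest to Itga4 was Kcnmb4, a subunit of a potassium channel, at a distance of 0.22 log2 units (-3.45 in Th2, -2.95 in Th9 and -1.04 in iTreg), followed by H2aw at 0.37. Kcnmb4 was also nearest to S1pr1 (0.31), and Itga4 itself came next (0.42). Within 0.5 log2 units lay 4 genes for Itga4 and 3 for S1pr1. For the second Cd44 probe 29 genes lay that close, the nearest being Spata6 (0.18) and Trim59 (0.23). Such likeness rests on 3 arrays only.

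Among the regulators of S1pr1, Klf2 had log2 ratios of -4.91 in Th2, -3.83 in Th9 and -1.27 in iTreg, the same order as S1pr1. It was higher in iTreg than in Th2 by 3.64 ± 0.56. Itga4 ran in that order too, and the part of Klf2 in the S1pr1 values was not tested. Cd69 was below naive cells too (-1.03, -1.47 and -0.55, or -0.49, -1.20 and -0.71 with median centring). In the list of 16 genes of S1P metabolism and signalling, 6 of 12 measured genes were at least 2-fold lower in Th2, 5 of 13 in Th9 and 2 of 12 in iTreg. With median centring 2, 4 and 2 were lower. Genes of the list at least 2-fold higher numbered 1, 1 and 0 with loess, and 2, 2 and 1 with median centring. Of all measured genes 14.5%, 15.6% and 8.15% were lower with loess, and 7.4%, 11.4% and 12.0% with median centring. The shares higher were 14.8%, 15.5% and 10.2% with loess, and 25.4%, 21.5% and 8.18% with median centring. Mfsd2b of this list, measured by 1 of its 2 probes, stood at 0.35, 0.62 and 0.74. With median centring it stood at 1.95, 1.97 and 1.23. S1pr5, an S1P receptor of NK cells, stood at -2.92 in Th2 and -2.94 in Th9 and was at background in iTreg, with a bound of -2.90. Sphk1, the kinase that makes S1P, was higher in Th9 by 2.56. Its naive signal was at background on the other arrays, where it was at least 1.62 log2 units higher in Th2 and at least 0.42 in iTreg. Sphk2, the other such kinase, was lower in Th2 and Th9 (-1.28, -1.78 and -0.44), though with median centring it was past 2-fold in Th9 only (-0.79, -1.57 and -0.63), and the receptor gene S1pr2 was higher in Th2 alone by the size rule (1.04, -0.03 and 0.07).

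Of 20 further integrin chains 19 had a probe, and 10, 8 and 9 were measured in Th2, Th9 and iTreg. Itga7, a laminin-binding chain, was higher in all 3 (3.02, 2.80 and 2.88). Itgb5 was higher in Th2 (2.74) and Th9 (2.42) and stood at 0.78 in iTreg, and Itga3 was higher in Th2 (1.81) with 0.42 in Th9 and 0.00 in iTreg. Itga6, another laminin-binding chain, was lower with iTreg closest to naive (-2.75, -2.24 and -1.16). Itgb3, measured by 1 of its 2 probes, was also lower in all 3 (-1.74, -2.10 and -1.38). Itgax, a chain typical of dendritic and NK cells, was at -1.83 in Th2 and -1.85 in iTreg and at background in Th9, with a bound of -1.98. The list's medians were 0.18, 0.35 and 0.00.

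The count for the machinery that switches integrins on turned on the scaling. Of its 31 genes 12 of 25 measured were at least 2-fold lower in Th2, 11 of 24 in Th9 and 3 of 24 in iTreg, with list medians of -0.68, -0.73 and -0.32. With median centring 3, 3 and 3 were, and the medians were 0.05, -0.11 and -0.33. Of all measured genes 14.5%, 15.6% and 8.15% were lower with loess, and 7.4%, 11.4% and 12.0% with median centring. With loess 3 were lower in each culture, namely Rasgrp2, Tln1 and Rap1b. Rasgrp2, an activator of the GTPase RAP1, stood at -2.20, -1.83 and -2.41, and at -1.59, -1.42 and -2.56 with median centring. Tln1, the talin that binds beta chain tails, was at -1.81, -1.61 and -1.09 (-0.82, -0.81 and -0.60 by its other probe). Apbb1ip, the adaptor between RAP1 and talin, was at -1.88, -1.31 and -0.60 (-1.34, -0.96 and -0.72 with median centring). Higher values were rare, with Rap1gap, which turns RAP1 off, at 2.32 in Th2 and, from a naive signal at background, at least 2.04 in Th9 and 0.43 in iTreg. The others past 2-fold were Skap2 at 1.42 in Th2 and Vcl, vinculin, at 1.24 in Th9, and Cyth3, an exchange factor of the cytohesin family, at 1.23 in iTreg (0.95 with median centring). With median centring Tln1 (-0.80, -0.83 and -0.95) and Rap1b (-0.36, -0.71 and -0.86) moved inside 2-fold.

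Few of the 13 integrin ligands were measured (3, 3 and 4). Icam2, a ligand of LFA-1, was lower in every culture (-3.48, -3.50 and -2.69). Icam1 stood at 0.21, 0.32 and -0.41, and Icam5 at 1.01 in Th2. Of the hyaluronan list 8 of 14 genes were measured. Hmmr, a hyaluronan receptor that also acts in mitosis, was higher in Th2 (1.45) and Th9 (1.63) and at 0.29 in iTreg. Srgn, the proteoglycan serglycin that CD44 can bind, was at 1.16 in Th2, -0.81 in Th9 and -0.42 in iTreg, or 2.42, -0.03 and -0.29 with median centring. Msn, moesin, which links CD44 to actin, was lower (-2.11, -2.11 and -1.04), though -0.75, -1.01 and -0.66 with median centring.

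**Figure D5:**
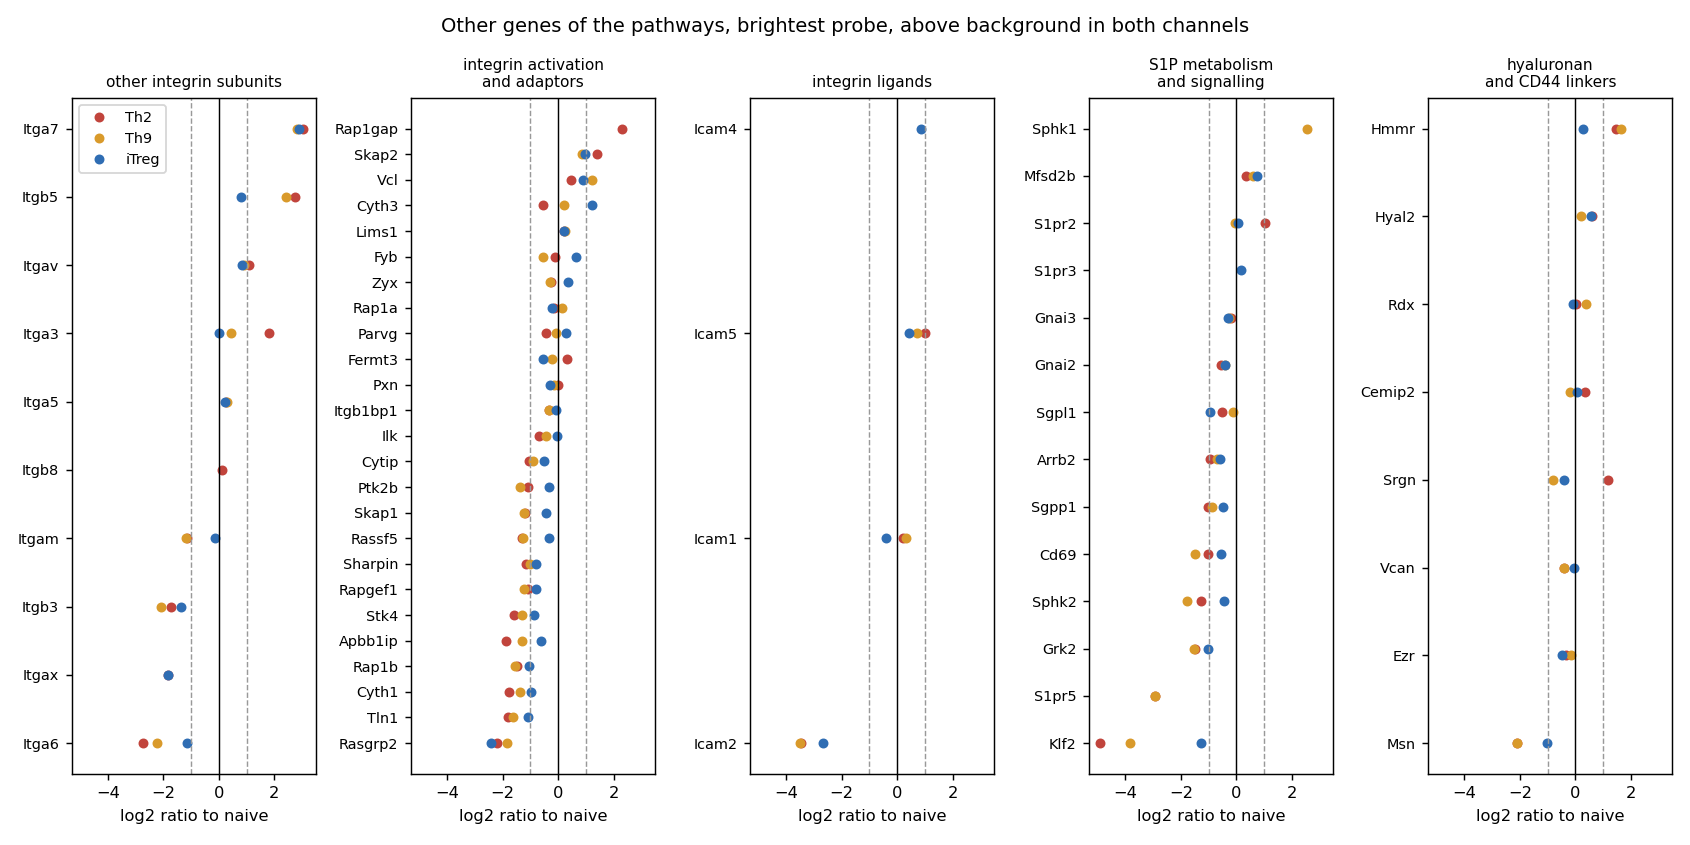
Log2 ratio to naive cells of the other pathway genes (rows, brightest probe) in Th2, Th9 and iTreg (points), shown where a gene was well above background in both channels, with dashed lines at 2-fold. The values are those with loess, under which most genes of integrin activation lie at or left of 0, and Klf2 spans from -4.91 in Th2 to -1.27 in iTreg.

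The purity of the preparations was followed by marker genes. All 10 T cell markers, Cd3e and Cd4 among them, were above background in every channel, with ratios given earlier. Of 10 NK and CD8 T cell markers 9 were above background in the naive channels, with a summed net intensity of 14030 to 14400. In the cultures 5, 4 and 6 were, with sums of 4967 in Th2, 4121 in Th9 and 8214 in iTreg. Ncr1 and Klrb1c were at background in each culture and Cd8a in every channel. Of 11 myeloid markers with a probe 8 or 9 were above background in naive channels and 3, 4 and 7 in Th2, Th9 and iTreg. Their summed net intensity was 32260 to 39360 in the naive channels, and 43228, 41036 and 52151 in the cultures. Most of each sum came from 1 of the 2 probes of Siglech, a marker of plasmacytoid dendritic cells. That probe read 27571 to 34418 in naive channels and 42041, 39548 and 50528 in the cultures. The other Siglech probe was not measured on any array, so this signal rests on 1 probe. Raw intensities of the 2 dyes are not on 1 scale, so the myeloid sums do not show a rise over naive cells. After normalisation the Siglech log2 ratios were -1.0 in Th2, -1.07 in Th9 and 0.02 in iTreg. With median centring they were 0.36, 0.01 and 0.36, so the Th2 and Th9 values turned on the scaling. S100a9, a granulocyte gene, read 2381 to 2528 in naive channels and 140, 420 and 557 in the cultures. Its log2 ratios were -4.24, -2.85 and -2.23, or -3.97, -2.74 and -2.51 with median centring. Lyz2, Cd14 and Clec9a were at background in each culture. The B cell markers Ms4a1, Cd79a, Pax5, Blk and Fcer2a were at background in all channels. Blnk was above background in the naive channels only, at 94 to 100.5. Cr2 cleared background in the naive channels of the Th2 and iTreg arrays (84 and 78) and in iTreg (115). Platelet and red cell markers summed to 2003 to 2085 in naive channels and 264 to 921 in the cultures. Cd79b, another B cell marker, was above background in every channel, at 467.5 to 489 in naive cells and 2545.5, 2481 and 2069.5 in Th2, Th9 and iTreg. It made up most of the B cell list's sums, which were 2236 to 2714 in the cultures against 782 to 830 in naive channels. NK cells and myeloid cells also carry integrins, CD44 and S1P receptors. The NK and CD8 sums were lower in Th2 and Th9 than in iTreg, as were Itga4 and S1pr1. Most of the iTreg sum came from Nkg7 (2766.5, 2342 and 4710 in Th2, Th9 and iTreg) and Klrd1 (179.5, 206 and 1827). Not all markers ran that way, with Prf1 lowest in iTreg (1546, 1345 and 1047) and Cd8b1 highest in Th2 (458, 256.5 and 333). The part of NK, CD8 and myeloid cells in these results was not tested.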

How the data were processed

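The 3 hybridisations were on Agilent 2-colour mouse arrays. Per the file headers, each deposited scanner file gives median intensity of spot and local background for either dye, read by Agilent's Feature Extraction (11.0.1.1 there, but 9.3.2.1 per the submitters' processing notes). The deposited files also give a processed intensity, and per the file headers a log10 ratio (Cy5 to Cy3) with an error in log10 units. The deposited series values are log2 ratios. They equalled the scanner's processed log2 ratio shifted by a single number for each array (0.0562 for Th2, 0.0206 for Th9, 0.0365 for iTreg) within 0.001 for 99.3% to 99.4% of probes, which settles their direction and scale, and their medians were 0.14, 0.26 and 0.28.

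Median intensities were background-corrected by normexp with offset 50, which pulls ratios of dim spots toward 0, then loess was fitted on every array (limma 3.58.1 in R 4.3.3). Control and outlier spots had no weight in the loess, outlier spots were dropped, and spots of 1 probe were averaged. Channel levels were then scaled between arrays by quantiles of mean intensity. Accessions were matched without version to GRCm38.p6 genes (26055 of 39429 probes, 19751 genes). Member probes were all used. For counts over genes the brightest probe of a gene was taken. Itgb3, Sphk1, Rap1gap and Vcl had 2 probes each, and the dimmer one was not measured on any array. Counts and plots were made in Python 3.11.15 (pandas 2.3.3, matplotlib 3.10.9). The procedure with loess was also run on simulated data in which few probes changed. That run did not include median centring and does not bear on the choice between the scalings.

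Named genes follow a rule: all member probes, and from each pathway list up to 3 highest and 3 lowest values in any culture, with Klf2 and Cd69. Rap1b, Cyth3, Fyb, Fn1, Vcam1 and the cell type marker genes are named outside it. The genes, lists and rule were chosen with earlier results of these data known, and the promoter motifs after the values were seen. Labels give 1 biological replicate per culture, and do not say whether the naive channels share 1 RNA extract. The 3 arrays sat on 1 slide. A B cell marker of the list is not reported here.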

Additional observations from a re-analysis of the deposited data

How the results depend on the processing

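Median centring, a normexp offset of 16, the scanner software's processed signals, the deposited series values, counting dim probes and averaging the probes of a gene were tried for the member counts of each comparison and, chosen after seeing the data, for the counts over several cultures together. S1pr4 made the lower count in Th2 4 with the processed signals and the deposited values, against 3, and averaging probes made that in iTreg 2, against 3, and that in all 3 cultures together 2, against 3 (Itga4). The other counts kept their values, except that with median centring 1 gene (Itgb1, -1.02) was at least 2-fold lower in iTreg than in Th2 and 1 (Cd44, -1.0) lower in iTreg than in Th9, against 0 in each with loess. Of 67 member values and differences, median centring moved 40 by more than the scanner error, the processed signals and the deposited values 1 each, and the smaller offset 0. Direct comparison of Cy5 channels moved 0 of 33. No value past 2-fold changed sign. With median centring 239 genes were higher and 2829 lower in iTreg than in Th2, against 723 and 705, and in Th2 against naive 2782 were higher and 810 lower, against 1620 and 1591. Between iTreg and Th9 the counts were 320 and 1765, against 713 and 659, and between Th9 and Th2 102 and 244, against 134 and 144. Which scaling is nearer to the RNA amounts was not tested. No paired analysis was possible because each culture has 1 array. For dim probes the signal over background limits the ratio.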

Other observations

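The adaptor gene Fyb, whose protein ties the T cell receptor to integrin activation, was read differently by its probes, a gene chosen after its values were seen. The brightest probe gave log2 ratios of -0.10 (Th2), -0.55 (Th9) and 0.64 (iTreg), while the other gave 1.90, 2.04 and 2.84, with iTreg the highest at both. With median centring the brightest probe gave 0.74, 0.00 and 0.70, so there Th2 and iTreg were close.

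Some ligand genes, also picked after their values were seen, were above background in 1 channel only. Fn1, fibronectin, did not clear background in naive or iTreg cells, and stood at least 2.45 log2 units higher in Th9 and 1.03 higher in Th2 than in naive cells. Vcam1 was at background in each culture and not in naive cells, with bounds of -1.64, -2.01 and -1.72 for Th2, Th9 and iTreg against naive.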
